A study of Homo sapiens with 4 samples.

Results

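The miR-106b-25 cluster is a group of 3 miRNA hairpins, miR-106b, miR-93 and miR-25, transcribed within an intron of MCM7, a subunit of the replicative DNA helicase. miR-32 lies in another gene, TMEM245, and shares its seed with miR-25. The 8 mature arms of these 4 hairpins, taken by name, are described here out of 2039 mature miRNAs in the table. They were measured by small RNA sequencing in HFE-145, an immortalised human gastric epithelial cell line, in 2 samples carrying the vector and 2 overexpressing YAP5SA, an active mutant of YAP, the transcriptional coactivator restrained by the Hippo pathway. All 4 samples were the same cell line and were prepared as total RNA with the same kit, and they differ by label only in the overexpressed gene. The series text calls the samples duplicates and does not say whether they were separate cultures. The p-values therefore reflect the spread between these libraries alone, which may be technical, and in bulk RNA fewer cells of a type cannot be told apart from less RNA per cell.

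A miRNA hairpin is cut by Drosha and Dicer into a duplex of a 5p and a 3p arm, of which Argonaute usually retains one, the guide, while the other, the passenger, is mostly degraded. The guide finds its target mRNAs chiefly through the seed, bases 2 to 8 from its 5′ end, so miRNAs with the same seed can share targets. The miR-106b-25 cluster is a paralogue of the miR-17-92 cluster, is induced with its host gene by E2F factors, and is known from gastric cancer as a repressor of the cell cycle inhibitor p21 and the pro-apoptotic protein BIM. The known guides of these hairpins are miR-106b-5p, miR-93-5p, miR-25-3p and miR-32-5p.

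Of the 8 arms, miR-32-5p was the member that passed edgeR's quasi-likelihood test in YAP5SA cells, where it fell 4.32-fold. It was admitted by the low-count filter through the vector libraries alone, where it was higher. Its call was lost with library totals, scaling from abundant miRNAs, DESeq2 and limma-voom, and held with RLE size factors and upper quartile scaling. The 3 abundant arms of the cluster were miR-25-3p, miR-106b-3p and miR-93-5p. They lay lower in both YAP5SA libraries than in both vector libraries on the TMM scale. None of them passed, and the groups did not overlap for 60.5% of all tested miRNAs. The median log2 fold change was -0.68 for tested miRNAs from 1000 CPM upward, where miR-25-3p and miR-106b-3p lay. It was -0.44 from 200 to 1000 CPM, where miR-93-5p lay. With library totals or scaling from abundant miRNAs, miR-106b-3p changed sign and the other 2 came closer to 0, while the remaining scalings kept all 3 below 0. The arms of miR-93 lay apart in opposite directions: the log2 fold change was -0.84 for miR-93-5p and 1.62 for miR-93-3p, and the 5p share of miR-93 reads went from 93.0% and 92.4% in the vector libraries to 70.8% and 68.4% with YAP5SA. In the comparison 92 of 602 tested miRNAs were called (15.3%), 71 of them higher (11.8%) and 21 lower (3.49%), so 1 lower call among 8 members is to be read against a background of 3.49%. An unadjusted p under 0.05 was given to 200 of the 602.

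Total counts were 136903 to 217235 per library, and the 8 arms together held 0.548% to 0.661% of them. Messenger RNA was not analysed here, and overexpression of YAP could not be checked in these libraries. The 9 miRNAs listed here as epithelial markers summed to 65334 and 56544 CPM with vector and 23348 and 27443 CPM with YAP5SA. The largest part with vector was miR-7-5p, and whether it marks epithelial cells was not tested here. On the scale of the tested miRNAs it had 37222 and 31709 CPM with vector and 12786 and 12979 CPM with YAP5SA. Lists for blood, muscle, mesenchymal, endothelial, neural and liver cells summed to between 5 and 88 reads in each library, with no marker at 0 in all libraries. The neural list had 5 and 5 reads with vector and 27 and 31 with YAP5SA. The share of all counts that fell on miRNAs averaging under 20 reads was 3.41% and 3.15% with vector, 10.5% in YAP5SA replicate 1 and 5.56% in YAP5SA replicate 2. Below 200 CPM the median log2 fold change of 431 tested miRNAs was 0.42, and from 1000 CPM upward that of 66 was -0.68. The part of these markers and of the rare miRNAs in the results on the 8 arms was not tested.

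The mature sequences, from RefSeq on GRCh38.p14, show how the arms are related, with the seed in capitals. All 8 were identical to the sequences in the deposited table, and each occurred in 1 entry of it.
hsa-miR-106b-5p: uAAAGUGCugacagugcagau
hsa-miR-93-5p: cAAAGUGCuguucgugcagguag
hsa-miR-25-3p: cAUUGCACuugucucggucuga
hsa-miR-32-5p: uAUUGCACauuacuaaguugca
hsa-miR-106b-3p: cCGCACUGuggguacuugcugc
hsa-miR-93-3p: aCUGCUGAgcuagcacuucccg
hsa-miR-25-5p: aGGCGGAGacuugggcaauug
hsa-miR-32-3p: cAAUUUAGugugugugauauuu
The guides thus fall into 2 seed groups. miR-106b-5p and miR-93-5p carry AAAGUGC, the seed of miR-17, which 8 miRNAs of the table have, and miR-25-3p and miR-32-5p carry AUUGCAC, which 6 have. Each of the other 4 arms has a seed found in no other entry of the table. Over the whole length, seed included, miR-25-3p and miR-32-5p match at 13 of 22 positions counted from the 5′ end, against 18 of 22 for miR-25-3p and miR-92a-3p, its relative in the miR-17-92 cluster. miR-93-5p and miR-106b-5p match at 16 of 21 positions. The 4 differences between miR-25-3p and miR-92a-3p make them close relatives, and the sources used here do not say how reads were assigned between related miRNAs.

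The sequence source used here had no hairpin entry for MIR93. The other hairpins are shown for the comparison of their arms, with both mature arms in capitals, from RefSeq on GRCh38.p14.
MIR106B: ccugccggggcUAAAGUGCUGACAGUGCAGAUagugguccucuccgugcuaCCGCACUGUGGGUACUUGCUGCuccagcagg
MIR25: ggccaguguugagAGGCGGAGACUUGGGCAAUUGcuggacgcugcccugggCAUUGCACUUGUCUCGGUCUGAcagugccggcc
MIR32: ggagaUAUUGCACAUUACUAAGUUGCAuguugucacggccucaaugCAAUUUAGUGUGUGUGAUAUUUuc
On GRCh38, MIR106B lies at chr7:100093993-100094074, MIR93 at chr7:100093768-100093847 and MIR25 at chr7:100093560-100093643, all on the minus strand, so the cluster spans 515 bases with gaps of 145 and 124 bases. In GENCODE 29 all 3 lie in intron 13 of the 15-exon MCM7-201 transcript, on the strand of MCM7, and are intronic in each of the 8 MCM7 transcripts that span them. MIR32 lies at chr9:109046229-109046298 on the minus strand, in intron 14 of the 18-exon TMEM245-201 transcript and on the strand of TMEM245, which encodes a transmembrane protein. It is intronic in each of the 3 TMEM245 transcripts that span it. Host mRNAs were not analysed here.

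miR-32-5p had 25 and 20 reads with vector, against 5 and 6 with YAP5SA. The exact Poisson 95% intervals of the lower counts, 1.62 to 11.7 and 2.20 to 13.1 reads, cover counting error only, and the intervals of the vector counts start at 16.2 and 12.2 reads. As TMM-normalised counts scaled to library size (CPM), its level was 132 and 131 with vector and 28.4 and 31.4 with YAP5SA, and the groups did not overlap. The mean went from 132 ± 0.439 to 29.9 ± 2.12 CPM (SD, n = 2), a log2 change of -2.11 (SE 0.50, adjusted p = 0.033 by edgeR with Benjamini-Hochberg adjustment).

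miR-32-3p, the passenger, had 19 and 15 reads with vector and 9 and 6 with YAP5SA. Its level was 100.4 and 98.6 CPM with vector and 51.1 and 31.4 CPM with YAP5SA. Both arms of miR-32 were thus lower in each YAP5SA library than in each vector library. The log2 fold change of miR-32-3p was -1.26 ± 0.50 (SE) and did not pass (adjusted p = 0.12, edgeR). A rare miRNA admitted by the low-count filter through 1 group is selected for being higher there. Both arms of miR-32 entered the test through the vector libraries. miR-32-3p reached the filter of 51.6 CPM (before TMM scaling) in 2 vector libraries and 1 YAP5SA library. miR-32-5p reached it in neither YAP5SA library, and so entered through the vector libraries alone. Its call was lost without vector replicate 1 (adjusted p = 0.22, edgeR) or 2 (0.12), with library totals (0.079) or scaling from abundant miRNAs (0.099), and with DESeq2 (0.085), limma-voom (0.062) or limma on the authors' log2 values (0.095); the log2 fold change stayed between -1.46 and -2.74 in all 13 alternatives that tested it.

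miR-25-3p, the guide of miR-25 and the most abundant of the 8 arms, had 881 and 717 reads with vector and 393 and 678 in YAP5SA replicates 1 and 2. Its level was 4655 and 4713 CPM with vector and 2232 and 3548 CPM with YAP5SA, so the groups did not overlap and the YAP5SA libraries lay far apart. The log2 change was -0.70 (SE 0.30, adjusted p = 0.16 by edgeR). Scaled by library totals it was -0.23, and scaled from abundant miRNAs -0.054 (adjusted p = 0.71 and 0.91, edgeR).

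miR-106b-3p, the arm opposite the known guide of miR-106b, had 354 and 276 reads with vector and 223 and 298 with YAP5SA. Its level was 1870 and 1814 CPM with vector and 1267 and 1560 CPM with YAP5SA. The groups did not overlap, and the log2 change of -0.38 did not pass (SE 0.28, adjusted p = 0.40 by edgeR). Its sign turned with library totals (0.11), scaling from abundant miRNAs (0.28), the filter at 100 CPM (0.032) and limma on the authors' values (0.24).

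miR-93-5p, the guide of miR-93, had 120 and 97 reads with vector and 63 and 67 with YAP5SA. Its level was 634 and 638 CPM with vector and 358 and 351 CPM with YAP5SA, with close replicates in each group. The log2 change was -0.84 (SE 0.33, adjusted p = 0.12 by edgeR). Scaled by library totals it was -0.33, and scaled from abundant miRNAs -0.16 (adjusted p = 0.72 and 0.81, edgeR). Without YAP5SA replicate 2 the log2 fold change was -1.63 for miR-25-3p, -1.10 for miR-106b-3p and -1.39 for miR-93-5p. Without YAP5SA replicate 1 it was -0.50, -0.34 and -0.95 in the same order.

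For the 3 rarer arms of the cluster the log2 fold change lay above 0, although for miR-106b-5p and miR-25-5p it was near 0 and changed sign under some alternatives. miR-93-3p had 9 and 8 reads with vector and 26 and 31 with YAP5SA, or 47.6 and 52.6 CPM against 148 and 162 CPM, with no overlap. Its log2 fold change was 1.62 ± 0.49 (SE) and missed the threshold (adjusted p = 0.061, edgeR). By edgeR, upper quartile scaling (adjusted p = 0.046), library totals (0.012), scaling from abundant miRNAs (0.011) and the filter at 100 CPM (0.043) called it higher. RLE size factors (0.065), no filter (0.32) and the replicate block (0.057) did not, also by edgeR. Nor did DESeq2 (adjusted p = 0.20), limma-voom (0.067) or limma on the authors' values (0.19). miR-93-3p passed the low-count filter through the YAP5SA libraries alone, as did miR-25-5p. An arm admitted that way is selected for being higher there. Of the 431 tested miRNAs under 200 CPM, 23.2% had a log2 fold change at least as high.

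miR-106b-5p, the known guide of miR-106b, had 17 and 19 reads with vector and 18 and 22 with YAP5SA. Its level was 89.8 and 125 CPM with vector and 102 and 115 CPM with YAP5SA, and the groups overlapped, with a log2 change of 0.027 (SE 0.48, adjusted p = 0.98 by edgeR). miR-25-5p, the passenger of miR-25, had 10 and 10 reads with vector and 13 and 10 with YAP5SA. Its groups overlapped too, at 52.8 and 65.7 against 73.8 and 52.3 CPM, with a log2 change of 0.093 (SE 0.48, adjusted p = 0.92 by edgeR). Over the 8 arms the groups did not overlap for 6, against 60.5% of all tested miRNAs.

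**Figure D1:**
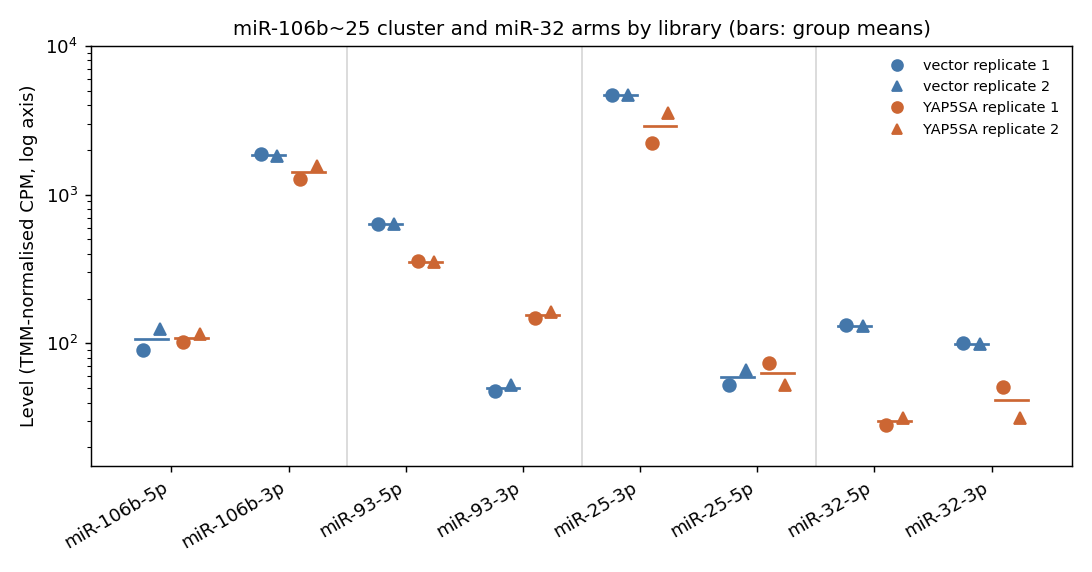
TMM-normalised level (CPM, log axis) of the 8 arms in each library, with horizontal bars for the group means of 2 libraries. Both miR-32 arms sit lower with YAP5SA (28.4 to 51.1 CPM) than in the vector libraries (98.6 to 132 CPM), and miR-93-3p sits higher (148 and 162 against 47.6 and 52.6 CPM).

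In the vector libraries the level of the arms, all 21 to 23 bases long, ran from miR-25-3p at 4684 ± 41.2 CPM (SD, n = 2) through miR-106b-3p at 1842 ± 39.7 and miR-93-5p at 636 ± 2.54 to miR-32-5p at 132 ± 0.439. Below these came miR-106b-5p at 107 ± 24.8, miR-32-3p at 99.5 ± 1.26, miR-25-5p at 59.3 ± 9.12 and miR-93-3p at 50.1 ± 3.56 CPM. miR-106b-5p overlapped miR-32-3p, and the lower miR-25-5p value, 52.8 CPM, nearly met the higher one of miR-93-3p, 52.6 CPM, so the lower end of this order is not resolved. In the YAP5SA libraries the 3 most abundant arms kept their order, at 2890 ± 931, 1413 ± 207 and 354 ± 5.10 CPM (SD, n = 2). miR-93-3p came next at 155 ± 10.3 CPM, ahead of miR-106b-5p at 109 ± 9.12, miR-25-5p at 63.1 ± 15.2, miR-32-3p at 41.3 ± 13.9 and miR-32-5p at 29.9 ± 2.12 CPM, and the miR-32 arms met at 31.4 CPM. These levels are read frequencies in a ligation-based library and were not corrected for differences in capture between sequences.

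**Figure D2:**
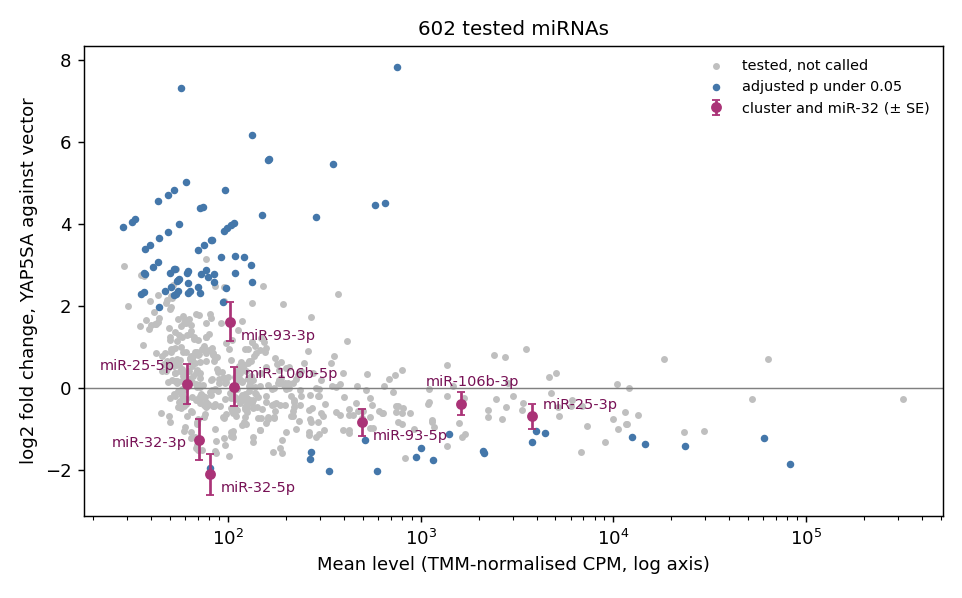
log2 fold change of YAP5SA against vector by mean level (CPM, log axis) for the 602 tested miRNAs, with the 8 arms and their SE. miR-32-5p lies at the lower edge at -2.11 among miRNAs of low level, many of which lie above 0, and miR-93-3p at 1.62 lies among many others.

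Because both arms come from 1 precursor, their ratio within a library is free of the scaling between libraries. In miR-25 the 3p guide held 98.9% and 98.6% of the hairpin's reads with vector and 96.8% and 98.5% with YAP5SA. In miR-106b it was the 3p arm that dominated, although the 5p arm is the known guide: 3p reads were 20.8 and 14.5 times the 5p reads with vector and 12.4 and 13.5 times with YAP5SA. In miR-32 the arms were near balance, with 56.8% and 57.1% of reads from 5p with vector and 35.7% and an even 6 of 12 reads with YAP5SA, and the exact binomial 95% interval for the lowest of these ran from 12.8% to 64.9% on 14 reads.

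miR-93 had the largest shift of the 4 hairpins. Its 5p arm held 93.0% of 129 reads in vector replicate 1 (exact binomial 95% interval 87.2 to 96.8) and 92.4% of 105 in replicate 2 (85.5 to 96.7). It held 70.8% of 89 reads in YAP5SA replicate 1 (60.2 to 79.9) and 68.4% of 98 in replicate 2 (58.2 to 77.4). The intervals of the groups did not meet, but they cover counting error only and not the spread between libraries. The 5p reads were 13.3 and 12.1 times the 3p reads with vector and 2.42 and 2.16 times with YAP5SA.

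The log2 arm ratio of miR-93 changed by -2.41 ± 0.39 (SE), from 3.59 ± 0.10 to 1.18 ± 0.11 (SD, n = 2), the second lowest p of 70 hairpins tested. By limma with Benjamini-Hochberg adjustment it missed the threshold of 0.05 (adjusted p = 0.0525). In that comparison 1 of 70 hairpins was called (1.43%), which was miR-3934, and 10 had an unadjusted p under 0.05. The change was -0.79 ± 0.54 (SE) for miR-32 (adjusted p = 0.59, limma), 0.80 ± 0.65 for miR-25 (0.70) and 0.42 ± 0.42 for miR-106b (0.72). The groups did not overlap in any of the 4 hairpins, against 47.1% of the 70. The arm test kept hairpins whose arms both averaged at least 10 reads over all libraries. miR-93 passed through the YAP5SA libraries, where its 3p arm had 26 and 31 reads, against 9 and 8 with vector. Its entry thus favoured a higher 3p arm with YAP5SA, and miR-32 passed through the vector libraries. The arm that was rarer with vector gained on the other arm in 49 of the 70 hairpins, with a median gain of 0.34 log2 units. The rarer arm was set from the vector values that the gain is measured against, which by itself favours a gain. On this measure the direction seen for miR-93 was common, and 4 hairpins had a larger change in size. In the 7 alternatives that tested it, the miR-93 change lay between -1.70 and -2.49 with adjusted p from 0.055 to 0.27.

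**Figure D3:**
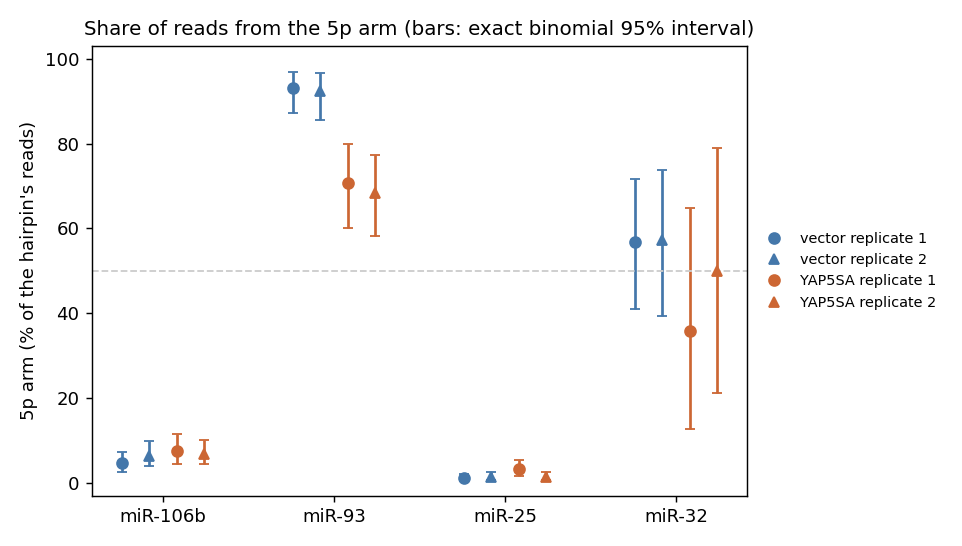
Share of each hairpin's reads from the 5p arm in each library, with exact binomial 95% intervals. The miR-93 share sits at 92.4% to 93.0% with vector and 68.4% to 70.8% with YAP5SA, while miR-106b and miR-25 stay below 8% and miR-32 lies near the dashed line at 50%.

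**Figure D4:**
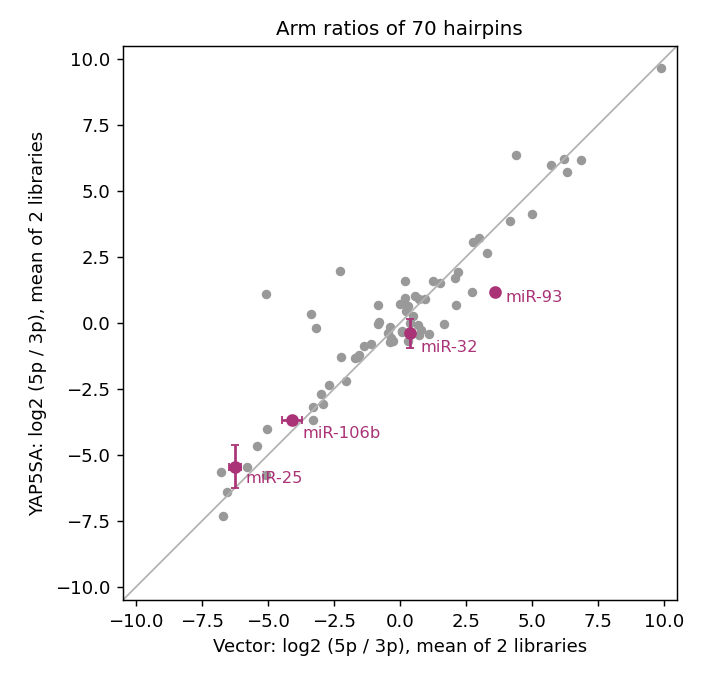
Mean log2 ratio of 5p to 3p reads in vector (x) and YAP5SA (y) libraries for 70 hairpins, with the 4 hairpins named and their SD over 2 libraries; the diagonal marks equal ratios. miR-93 lies below the diagonal at 3.59 and 1.18, and the other 3 lie within 1 log2 unit of it.

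The 2 host genes were compared through the summed reads of their miRNAs. The 6 cluster arms had 1391 and 1127 reads with vector and 736 and 1106 with YAP5SA, and the 2 miR-32 arms had 44 and 35 against 14 and 12. Cluster reads were thus 31.6 and 32.2 times miR-32 reads with vector and 52.6 and 92.2 times with YAP5SA, with no overlap. The log2 ratio went from 4.98 ± 0.016 to 6.07 ± 0.57 (SD, n = 2), a difference of 1.09 (two-sided exact permutation p = 0.33, the smallest that 2 against 2 allows). For the pair with a shared seed, miR-25-3p had 35.2 and 35.9 times the reads of miR-32-5p with vector and 78.6 and 113 times with YAP5SA, a log2 difference of 1.31 with the same p. No exact test can pass the threshold in this design.

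Within the cluster, miR-25 supplied most reads in each library. Its share was 64.1% (exact binomial 95% interval 61.5 to 66.6) and 64.5% (61.6 to 67.3) with vector and 55.2% (51.5 to 58.8) and 62.2% (59.3 to 65.1) in YAP5SA replicates 1 and 2. miR-106b supplied 26.7% and 26.2% with vector and 32.7% and 28.9% with YAP5SA. miR-93 supplied 9.27% and 9.32% against 12.1% and 8.86%. The 3 hairpins thus held similar proportions in 3 libraries, and YAP5SA replicate 1 had less miR-25.

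Seed relatives from other loci gave the setting for the 4 guides. Of the 6 miRNAs with the AUUGCAC seed, 4 could be tested. miR-32-5p was called lower and 0 were called higher, against 3.49% lower and 11.8% higher of all tested miRNAs. The median over those 4 was -0.41 on the log2 scale. All tested miRNAs had 0.11, but that median depended on level. It was 0.42 under 200 CPM, where miR-32-5p lay, and -0.44 from 200 to 1000 CPM, where miR-92b-3p lay. From 1000 CPM upward, where miR-25-3p and miR-92a-3p lay, it was -0.68. miR-92a-3p, from the miR-17-92 and miR-106a-363 clusters, had 799 and 873 reads with vector and 1037 and 623 with YAP5SA (log2 change -0.12 with an SE of 0.35, edgeR adjusted p = 0.84). miR-92b-3p, from a locus of its own, had 77 and 48 against 78 and 56 reads (log2 change 0.024 with an SE of 0.39, edgeR adjusted p = 0.98). miR-363-3p and miR-367-3p had at most 9 reads in any library.

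miR-25-3p and miR-92a-3p together made up most reads with this seed. miR-25-3p held 49.4% and 43.2% of them with vector and 25.7% and 49.6% with YAP5SA (replicates 1 and 2), and the groups overlapped (difference -8.62 percentage points, two-sided exact permutation p = 1.0). Without YAP5SA replicate 1 the difference was 3.32 points. miR-32-5p held 1.40% and 1.20% of the reads with vector and 0.327% and 0.439% with YAP5SA, a difference of -0.92 points with no overlap (two-sided exact permutation p = 0.33, the smallest possible).

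Of the 8 miRNAs with the AAAGUGC seed, 4 could be tested, 0 were called by edgeR, against 15.3% of all tested miRNAs, and 3 had an unadjusted p under 0.05, against 200 of 602. Their median log2 fold change was -0.91. All tested miRNAs from 200 to 1000 CPM, where miR-17-5p, miR-20a-5p and miR-93-5p lay, had a median of -0.44. Under 200 CPM, where miR-106b-5p lay, the median was 0.42. miR-17-5p, the founder of the family, had 155 and 97 reads with vector and 64 and 71 with YAP5SA (log2 change -0.99 with an SE of 0.34, edgeR adjusted p = 0.087). miR-20a-5p, from the same cluster, had 65 and 58 against 30 and 30 reads (log2 change -1.14 with an SE of 0.38, edgeR adjusted p = 0.085). miR-93-5p and these relatives thus had log2 fold changes from -0.84 to -1.14, while miR-106b-5p, with the same seed, had 0.027. miR-106b-5p and miR-93-5p together held 36.7% and 40.6% of the seed's reads with vector and 38.9% and 43.4% with YAP5SA, a difference of 2.53 points (two-sided exact permutation p = 0.67). Among family members with a mean of at least 10 reads the difference was 4.47 points (exact p = 0.33, the smallest possible), and with a library left out it lay from 0.298 (without YAP5SA replicate 2) through 0.619 (without vector replicate 1) and 4.45 (without vector replicate 2) to 4.77 (without YAP5SA replicate 1). miR-106a-5p, with a mean of 10 reads, had 9 and 9 against 13 and 9.

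**Figure D5:**
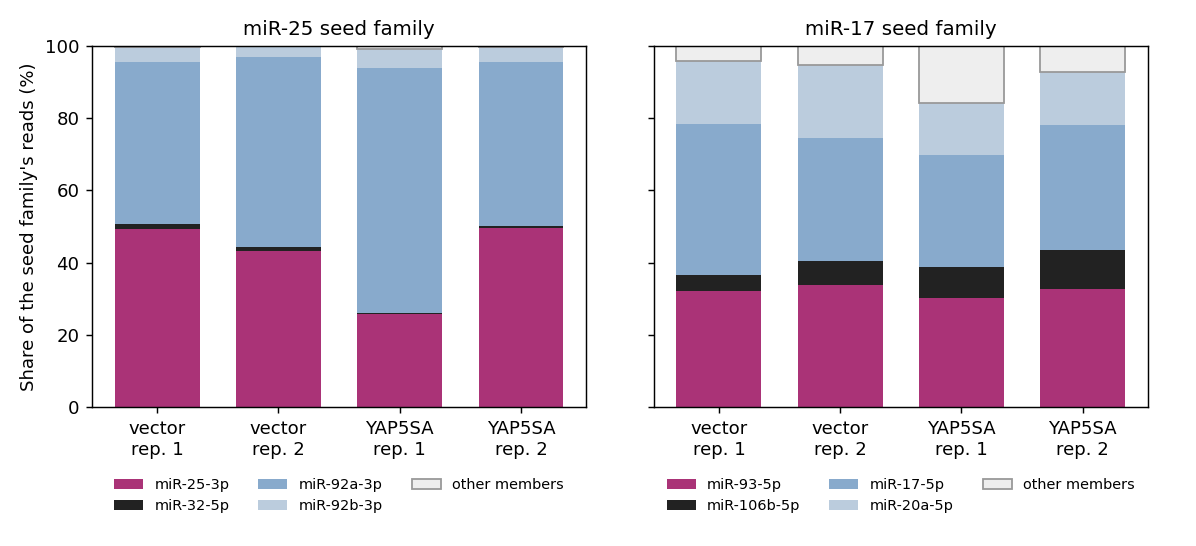
Share of reads with the miR-25 seed (left) and the miR-17 seed (right) held by each miRNA in each library, in percent. miR-25-3p has a smaller share in YAP5SA replicate 1 (25.7%) than in the other libraries, and miR-32-5p is a thin band of 0.327% to 1.40%.

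In the miR-17-92 cluster, the paralogue of the miR-106b-25 cluster, 9 of 12 arms were tested, and edgeR called 0, against 15.3% of all tested miRNAs, and gave 2 an unadjusted p under 0.05, against 200 of 602. The median log2 fold change was -0.52, to be read with the medians by level given above. The other tested guides were miR-18a-5p (log2 fold change -0.21, adjusted p = 0.82, edgeR), miR-19a-3p (-1.05, 0.20) and miR-19b-3p (-0.52, 0.47). In the miR-106a-363 cluster, a further paralogue, 4 of 12 arms were tested, and edgeR called 0 and gave 0 an unadjusted p under 0.05; the median was -0.18. miR-19b-3p and miR-92a-3p count in both clusters, since their sequences are made from both.

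The miRNAs whose pattern was most like each guide were sought among those with a mean of at least 100 CPM, by the Euclidean distance between log2 CPM values over the 4 libraries, each centred on its own mean. For miR-32-5p they were miR-21-5p at a distance of 0.19, miR-615-3p at 0.34 and miR-7-5p at 0.42, each called lower by edgeR. For miR-93-5p they were miR-486-5p (0.030), let-7e-5p (0.16) and let-7g-5p (0.18), and for miR-25-3p miR-383 (0.11), miR-3074-5p (0.11) and let-7f-5p (0.21). For miR-106b-5p they were miR-378a-3p (0.099), miR-221-5p (0.14) and miR-767-5p (0.16). With 4 libraries many of the 316 or 317 candidates lie close by, and these distances are a description.

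In the authors' deposited table, on its own normalised values, miR-32-5p had a fold change of 0.201 (p = 0.0051) and miR-32-3p of 0.313 (p = 0.0065). miR-93-5p had 0.652 (p = 0.015) and miR-93-3p 2.12 (p = 0.11) in the authors' deposited table. miR-25-3p stood there at 0.819 (p = 0.099), miR-25-5p at 0.693 (p = 0.075), miR-106b-5p at 0.810 (p = 0.37) and miR-106b-3p at 1.18 (p = 0.12), all from the authors' deposited table. miR-106b-3p was therefore higher on the authors' scale and lower in edgeR, and neither passed a test adjusted over all miRNAs. Relative to the median of all tested miRNAs, which moved from 0.11 with TMM to 0.61 with library totals and to 0.76 when abundant miRNAs set the scale, miR-32-5p stood at -2.23, -2.24 and -2.22, and miR-93-3p at 1.51, 1.51 and 1.52. A change of scale shifts all log2 fold changes nearly alike, so subtracting the median cancels it. The values therefore agree by construction and do not show that a call holds under each scaling.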

How the data were processed

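The authors deposited 1 table of mature miRNAs in 4 libraries. Its raw read counts are whole numbers per miRNA with no normalisation, per the file headers; its log2 values are log2 of a normalised read count, its fold ratio is YAP5SA over vector and its p-value comes from an unnamed test, per the file headers. The submitters' processing notes name FastQC and hg19; the sources used here do not give the aligner, counter, strand use or annotation version. The 3 lines with no miRNA were left out. Groups and replicate numbers came from the titles.

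Counts were tested with edgeR 4.0.16 (R 4.3.3): quasi-likelihood test, TMM, default low-count filter, group as the term, Benjamini-Hochberg over 602 miRNAs that held 96.9% of counts, threshold 0.05. SE is the log2 fold change divided by the square root of F. Arm ratios, log2 of (5p + 0.5)/(3p + 0.5), were tested with limma 3.58.1, its variance trended on the rarer arm, over 70 of 557 hairpins whose arms both averaged at least 10 reads. Host ratios and seed shares used two-sided exact permutation tests (SciPy 1.17.1). Counts carry no molecular identifiers, so intervals cover counting error only. Scripts were tested on simulated data. DESeq2 1.42.0, limma-voom, other scalings and filters, a replicate block and each sample left out were alternatives; limma on the authors' values and the block for shares were added after the data were seen. Coordinates are GRCh38 (GENCODE 29, RefSeq GRCh38.p14); the deposited hg19 positions were not used.

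Named were the 8 arms, seed relatives with a mean of at least 10 reads, tested guides of both paralogous clusters and the 3 nearest patterns per guide. miR-363-3p, miR-367-3p and miR-3934 fall outside this rule and were named after their values were seen. Members and lists were chosen with earlier results of these data known.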

Additional observations from a re-analysis of the deposited data

How the results depend on the processing

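The number of miRNAs called, 92, became 159 with library totals, 157 with scaling from abundant miRNAs, 48 with no filter, 26 with the filter at 100 CPM, 54 with DESeq2, 31 with limma-voom and 10 with limma on the authors' log2 values, and 1 (without vector replicate 1) to 283 (without YAP5SA replicate 2) with a library left out, with 13 without vector replicate 2. Calls split into 147 higher and 12 lower with library totals, and 152 and 5 with scaling from abundant miRNAs, against 71 and 21. The number of the 8 arms called, 1, became 2 with upper quartile scaling, 0 with DESeq2, 0 with limma-voom, 0 with limma on the authors' values and 0 to 4 with a library left out. With library totals, scaling from abundant miRNAs and the filter at 100 CPM it was again 1, but miR-93-3p in place of miR-32-5p, which that filter left out with miR-32-3p and miR-25-5p. Fits with a library left out tested 679 to 1042 miRNAs, so they also change the filter, and a lone sample is assumed to vary like the other group.

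The sign of miR-106b-5p turned with RLE size factors (-0.034), no filter (-0.39), DESeq2 (-0.036) and the authors' values (-0.32), and with a library left out it lay from -0.61 to 0.019. That of miR-106b-3p turned with library totals (0.11), scaling from abundant miRNAs (0.28), the filter at 100 CPM (0.032) and the authors' values (0.24). That of miR-25-5p turned with no filter (-0.36) and the authors' values (-0.53), and lay from -0.40 to -0.14 with a library left out. None of these 3 arms was called in the main comparison, and the cause was not tested. miR-25-3p, miR-93-5p, miR-32-5p and miR-32-3p stayed under 0 and miR-93-3p stayed over 0 in each alternative that tested them. With library totals and scaling from abundant miRNAs, miR-32-3p came to -0.75 and -0.59, from -1.26, and miR-25-3p and miR-93-5p also came closer to 0. The filter at 100 CPM gave -0.29 for miR-25-3p and -0.42 for miR-93-5p, and the authors' values gave -0.30 for miR-25-3p and 1.08 for miR-93-3p.

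Hairpins called for their arm ratio, 1, became 4 on the authors' values and 0 to 1 with a library left out. On the authors' values the arm change turned for miR-106b (-0.55) and miR-25 (-0.23). With both arms at a mean of at least 50 reads, 14 hairpins were tested and 1 was called, and none of these 4 was among those tested. The share of miR-25-3p among reads with its seed changed by -20.6 to 3.32 points with a library left out. The host ratio kept its sign, from 0.69 to 1.49 with a library left out.

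No label says that equal replicate numbers pair samples, and their deviations had a correlation of 0.0041 over 602 miRNAs. With the replicate block edgeR called 136 miRNAs and 1 arm, miR-32-5p, and the adjusted p of the miR-93 arm change was 0.13 by limma. The number of libraries and the low counts of miR-32 and the rarer arms limit what could be detected.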
